A study of Homo sapiens with 8 samples.

Results

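The 10 genes examined here define segments of the kidney tubule, and were searched for accessible chromatin in HEK293T cells. They are UMOD, SLC12A1, SLC12A3, AQP1, SLC34A1, LRP2, CUBN, SLC22A6, SLC22A8 and AQP2. The genes were listed by name, and all 10 were found among the 19617 protein-coding genes of the annotation. Each locus was taken as the gene span plus 20 kb on either side, and was searched for called peaks. UMOD had no peak in any of 8 libraries. SLC12A1 and LRP2 had a promoter peak in all 8, although that of SLC12A1 lay at an alternative start, among promoters of other genes. The other 7 genes had peaks within the gene or at a distance but none at their own promoter. No gene had peak counts, or lengths covered by peaks, that set the E92K libraries apart from the H2A libraries.

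The assay was ATAC-seq, which uses the Tn5 transposase to insert sequencing adapters where DNA is accessible. HEK293T, a transformed line derived from human embryonic kidney, expresses SV40 large T antigen. The labels give 4 libraries the genotype H2A(E92K)-lentivector and 4 the genotype H2A-lentivector, without any treatment. E92K names a change from glutamate to lysine in histone H2A, at a residue of the acidic patch, the surface of the nucleosome that many chromatin proteins grip. The labels do not say how much of each H2A was made, whether the cells' own H2A genes were altered, or whether the 4 libraries of a group came from separate cultures, so the p-values below measure only the spread between these libraries.

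The renal tubule turns plasma filtrate into urine in successive segments, each with its own transporters in the cell membrane. The proximal tubule recovers water, phosphate and filtered protein and secretes organic anions, through AQP1, SLC34A1, the receptor pair LRP2 and CUBN, and SLC22A6 and SLC22A8. The thick ascending limb of the loop of Henle takes up salt through SLC12A1 and secretes uromodulin, the product of UMOD. The distal convoluted tubule takes up salt through SLC12A3, and the principal cells of the collecting duct take up water through AQP2 under vasopressin. In the kidney these genes are switched on late, in mature epithelium, and factors of the HNF4 and PAX families are known regulators of several of them.

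The 8 peak lists held 55527 to 61850 peaks in E92K libraries and 57439 to 62044 in H2A libraries. Total read numbers were not used here. The genome-wide background pileup, a relative measure of depth recovered from the peak statistics, was 2.23 to 2.68 fragments in E92K libraries and 2.52 to 2.93 in H2A libraries, and was highest in H2A replicate 4. All peaks had a q-value of 0.01 or less. A locus without a peak therefore had no call at this depth, which is not the same as closed chromatin.

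A peak counted as a promoter peak if it touched the 1000 bp on either side of a start site of a basic protein-coding transcript. Of the 10 genes, 2 had a promoter peak in all 8 libraries, against 13345 of 19617 protein-coding genes (68%). The other 8 had a promoter peak in no library, against 5029 of 19617 (25.6%). UMOD was the only one of the 10 without any peak at its locus, which was the case for 1317 of all genes (6.71%). The classes were stable across the lists, since each library had 1 gene without a peak, 2 with a promoter peak and 6 or 7 with other peaks only. The genes AQP1, SLC34A1, CUBN, SLC22A6, SLC22A8 and AQP2, 6 of the 10, had no promoter peak but a peak away from coding promoters in every library. This combination held for 2392 of all genes (12.2%), or 47.6% of the genes without a promoter peak.

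**Figure D1:**
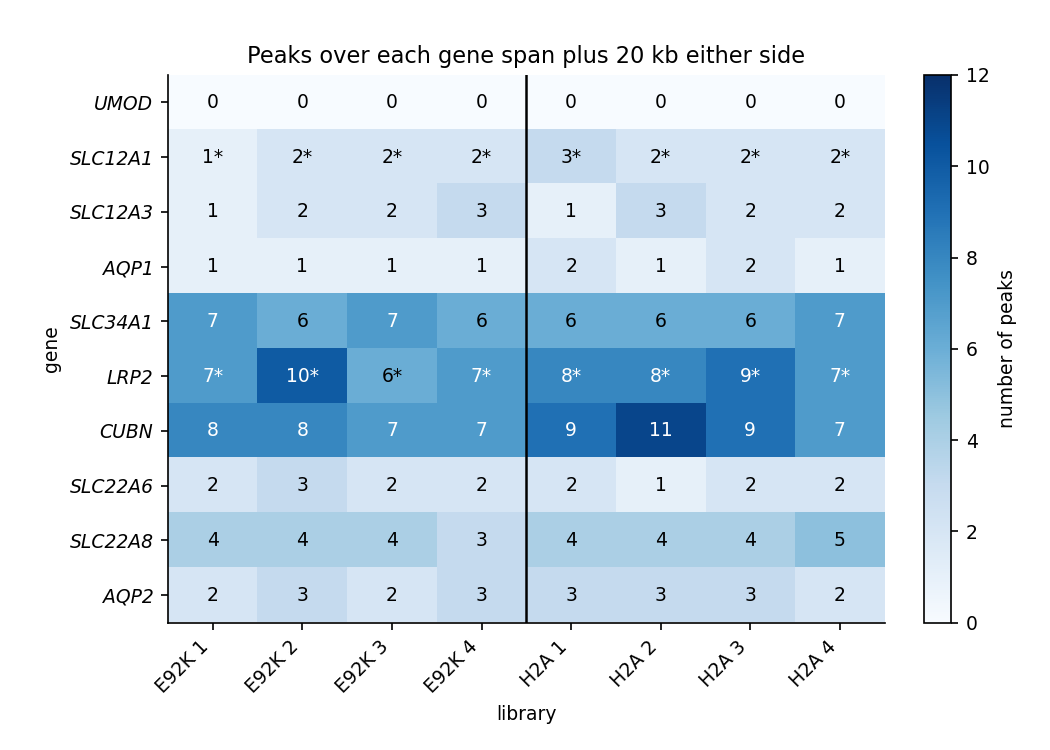
Number of peaks over each gene span plus 20 kb either side (rows) in each library (columns), with E92K libraries left of the line and H2A libraries right of it; an asterisk marks a peak at the gene's own promoter. UMOD is at 0 in all 8 columns, LRP2 and CUBN reach 10 and 11 peaks, and asterisks stand only in the rows of SLC12A1 and LRP2.

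The loci held 54 distinct accessible regions after peaks of the 8 lists were merged, 1 of them shared by the neighbours SLC22A6 and SLC22A8. Of the 54, 24 (44.4%) were present in all 8 libraries, against 38.1% of the 96872 regions of the genome, and 15 (27.8%) in 1 library, against 26.5%. The largest class was intronic, with 26 regions, of which 8 were in all libraries. A further 13 lay upstream and 6 downstream, 4 were promoters of other genes, 3 were promoters of a member and 2 were exonic. Regions in all 8 libraries had a median width of 947 bp, against 292 bp for those in 1 library. The pileup at the summits of the 1-library regions was 10 to 18 fragments, against 10 to 340 for regions in all 8.

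**Figure D2:**
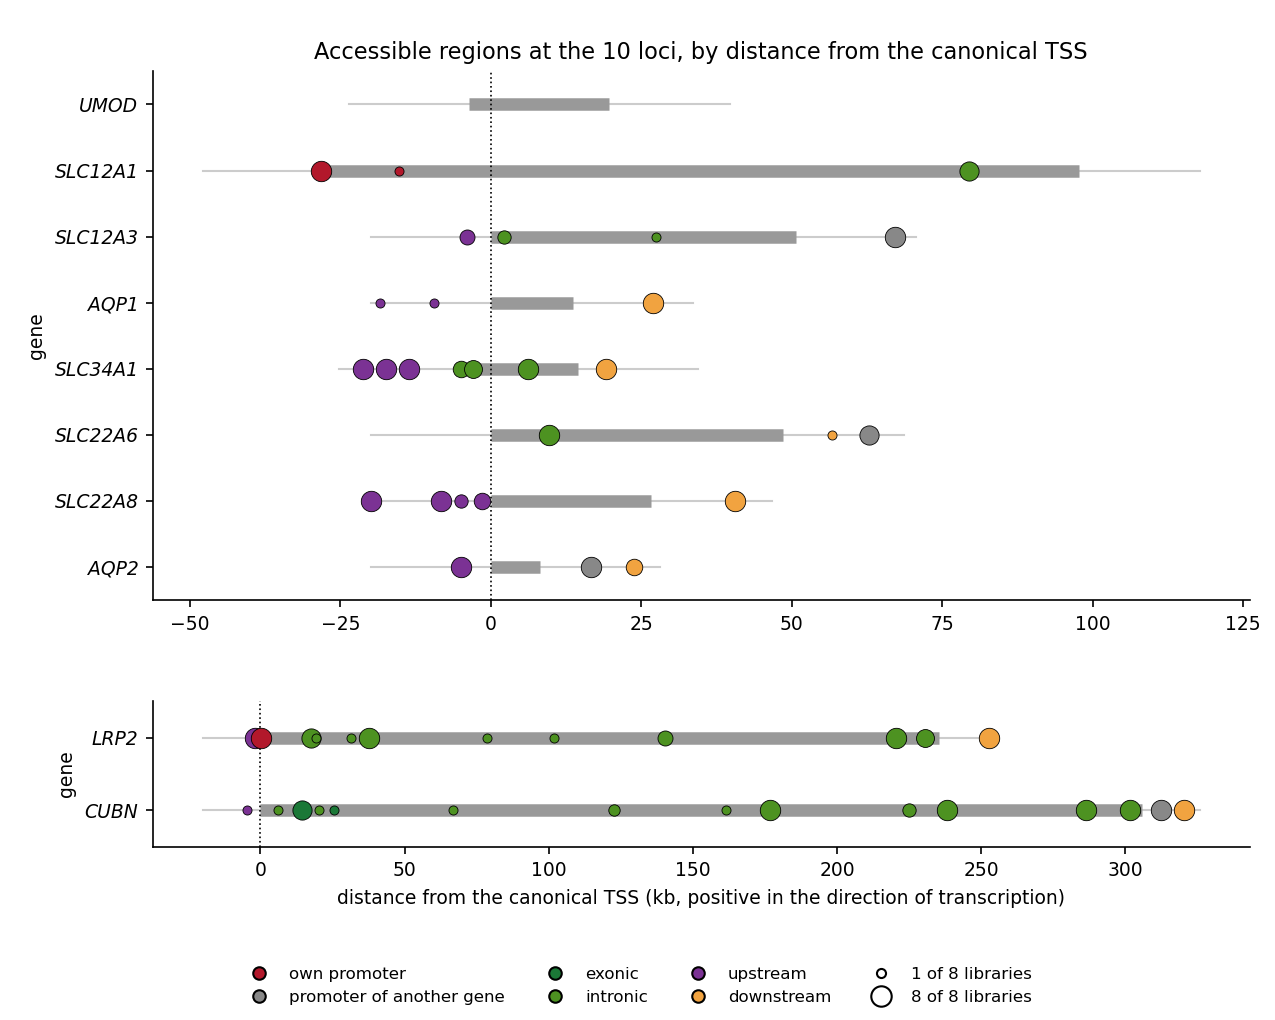
Position of each accessible region by its midpoint, in kb from the canonical start site (x axis, positive in the direction of transcription; 8 shorter loci above, LRP2 and CUBN below on their own scale), with the gene span as a grey bar, the 20 kb flanks as a thin line, colour for the class of region and size for the number of libraries. UMOD has no point, 1 region covers the start site of LRP2, and large points of AQP2, SLC22A8 and SLC34A1 stand at a distance from the dotted start line.

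UMOD, which encodes the most abundant protein of normal urine, lies on chromosome 16 at positions 20333051 to 20356301 of hg38. The peak nearest to its canonical start site was 30.5 to 51.8 kb away in E92K libraries and 30.4 to 30.6 kb away in H2A libraries. On the upstream side that peak lay in PDILT, 26.8 kb beyond the gene span, in 7 of 8 libraries. On the downstream side the nearest region was 32.1 kb away and present in 6 libraries. The locus was thus empty of calls between these flanking regions in both groups. Its promoter letters are shown because it is the gene without any call, beside those of LRP2, the only gene of the 10 with a peak at its canonical start. Both are 300-base windows from RefSeq on GRCh38, and capitals mark matches to the motifs GCCNNNGGC (TFAP2), GGGCGG (GC box) and CAAAGNNCA (an HNF4 core), searched on both strands.

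UMOD, chr16:20352666-20352965, minus strand: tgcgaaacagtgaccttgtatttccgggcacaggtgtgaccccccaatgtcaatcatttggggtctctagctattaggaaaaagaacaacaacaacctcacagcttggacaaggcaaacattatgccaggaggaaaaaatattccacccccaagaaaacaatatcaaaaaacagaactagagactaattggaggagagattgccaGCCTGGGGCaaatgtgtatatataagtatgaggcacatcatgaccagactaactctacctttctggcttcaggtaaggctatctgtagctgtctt
LRP2, chr2:169362485-169362784, minus strand: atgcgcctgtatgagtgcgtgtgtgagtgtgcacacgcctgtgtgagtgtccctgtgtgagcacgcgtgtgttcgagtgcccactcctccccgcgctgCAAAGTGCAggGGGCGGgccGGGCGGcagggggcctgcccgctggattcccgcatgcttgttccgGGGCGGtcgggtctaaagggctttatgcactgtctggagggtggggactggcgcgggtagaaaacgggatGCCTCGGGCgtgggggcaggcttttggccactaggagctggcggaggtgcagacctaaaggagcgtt

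The UMOD window has 2 CpG dinucleotides, an observed over expected CpG ratio of 0.142, and 1 match, to the TFAP2 motif. That of LRP2 has 23 CpG dinucleotides, a ratio of 0.764, and matches to all 3 motifs. Of all coding promoters in the table, 28.5% hold the TFAP2 motif, 59.2% the GC box and 4.33% the HNF4 core. A match is a description of letters and does not show that a factor was bound.

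SLC12A1, the sodium-potassium-chloride cotransporter that loop diuretics block, had 1, 2, 2 and 2 peaks in E92K replicates 1 to 4 and 3, 2, 2 and 2 in H2A replicates 1 to 4. Its promoter peak was not at the canonical start site. It covered chr15:48177666-48178618, over an alternative start 27.9 kb upstream, where the promoters of MYEF2 and CTXN2 also lie, so the peak cannot be assigned to SLC12A1 alone. The fold enrichment of its summit over local background, as the authors' lists give it, was 11.5, 10.1, 12.1 and 9.07 in E92K libraries and 13.3, 10.6, 9.18 and 15.0 in H2A libraries. The values of the groups overlapped. Another peak, in H2A replicate 1 only, lay 383 bp from an alternative start 14.7 kb upstream.

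Within SLC12A1, a region in intron 21 at chr15:48285514-48286184 was called in 3 E92K and 4 H2A libraries. Its fold was 5.86 ± 1.21 in the 3 E92K libraries and 5.66 ± 0.416 in the 4 H2A libraries (SD). Only E92K replicate 1 lacked it. No other region was called between the canonical start site and the end of the gene.

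SLC12A3, the sodium-chloride cotransporter that thiazides block, had 1, 2, 2 and 3 peaks in E92K replicates 1 to 4 and 1, 3, 2 and 2 in H2A replicates 1 to 4. The one region called in all libraries was the promoter of HERPUD1, 67.1 kb downstream of the SLC12A3 start, with a fold of 9.19 ± 0.496 in E92K libraries and 10.0 ± 0.397 in H2A libraries (SD, n = 4 each). HERPUD1 encodes a membrane protein of the endoplasmic reticulum stress response. Closer to SLC12A3, a region 4.0 kb upstream was called in 2 E92K and 2 H2A libraries, with folds of 4.44 and 3.20 in E92K libraries and 3.70 and 4.03 in H2A libraries. A region 2.2 kb downstream of the start, in intron 2, was called in 1 E92K and 2 H2A libraries, and another in intron 20 only in E92K replicate 2. E92K replicate 1 and H2A replicate 1 had neither these nor any other peak at the locus apart from that of HERPUD1.

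AQP1 encodes the constitutively active water channel of the proximal tubule and thin descending limb. It had 1 peak in each E92K library and 2, 1, 2 and 1 in H2A replicates 1 to 4. The peak common to all 8 lay 26.9 kb downstream, at chr7:30938417-30939032, where a transcript of the neighbouring gene GHRHR that is outside the basic set begins. Its fold was 8.94, 9.69, 10.5 and 12.2 in E92K libraries and 11.2, 10.3, 9.65 and 11.4 in H2A libraries. Upstream of AQP1, single-library calls were made 18.5 kb away in H2A replicate 3 and 9.5 kb away in H2A replicate 1, with folds of 3.63 and 2.66. The gene span itself, 13.7 kb long, had no peak in any library.

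SLC34A1, the sodium-phosphate cotransporter of the proximal brush border, had the densest locus of the 10, with a median of 10.1 peaks per 100 kb, at the 95.6th percentile of all genes. It had 7, 6, 7 and 6 peaks in E92K replicates 1 to 4 and 6, 6, 6 and 7 in H2A replicates 1 to 4. The region with the highest fold was in intron 8, reaching into exon 9, at chr5:177390124-177391148. Its fold was 10.5, 9.25, 10.2 and 10.9 in E92K libraries and 9.74, 10.6, 7.73 and 10.0 in H2A libraries. Transcripts of SLC34A1 outside the basic set begin near it and near a weaker region 5.0 kb upstream of the canonical start, which was called in 3 E92K and 2 H2A libraries. A region 3.0 kb upstream was called in 3 libraries of each group, at folds of 2.62 to 3.39. Further regions present in all libraries, 3 in number, lay 13.6 to 21.2 kb upstream, inside RGS14. That at 13.6 kb had a summit pileup of 203 to 285 fragments over the 8 libraries, against 82 to 114 for the intron 8 region. The last region lay 19.1 kb downstream, within 1000 bp of start sites of F12 and GRK6 transcripts outside the basic protein-coding set.

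LRP2 encodes megalin, the large endocytic receptor that retrieves filtered proteins. It was the only gene of the 10 with a peak over its canonical start site. The promoter region, chr2:169361279-169363609, was 2331 bp wide after merging and had folds of 5.66, 4.59, 5.59 and 5.15 in E92K libraries and 5.29, 5.88, 4.68 and 4.70 in H2A libraries. A weaker region 1.8 kb upstream was also called in all 8, with a fold of 3.56 ± 0.317 in E92K libraries and 3.85 ± 0.14 in H2A libraries (SD, n = 4 each). LRP2 had 7, 10, 6 and 7 peaks in E92K replicates 1 to 4 and 8, 8, 9 and 7 in H2A replicates 1 to 4, so the groups overlapped.

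The region with the highest fold at LRP2 was not its promoter but one past the end of the gene, 252.7 kb from the start, at chr2:169109480-169110250. Its fold was 9.42, 9.11, 9.91 and 8.65 in E92K libraries and 9.58, 9.67, 9.50 and 7.37 in H2A libraries. By summit pileup the promoter was higher, at 114 to 142 fragments over the 8 libraries, against 45 to 72 for the downstream region. Within the gene, regions in intron 1 (37.6 kb from the start) and intron 71 (220.5 kb) were called in all 8. Another in intron 1, 17.4 kb from the start, was called in 4 E92K and 3 H2A libraries, and one in intron 33 in 2 libraries of each group. A region in intron 77 was called in 2 E92K and 4 H2A libraries (Fisher's exact test, two-sided, p = 0.429, adjusted p = 1 over all regions).

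CUBN encodes cubilin, a peripheral membrane receptor that binds vitamin B12 with intrinsic factor and works together with megalin. At 305.8 kb it is the longest of the 10 genes, and it had 8, 8, 7 and 7 peaks in E92K replicates 1 to 4 and 9, 11, 9 and 7 in H2A replicates 1 to 4. The E92K counts all lay below those of H2A replicates 1 to 3, while H2A replicate 4 fell within the E92K range. The nearest peak was 13.8 to 14 kb from the start site in E92K libraries and 4.49 to 13.8 kb in H2A libraries. The nearer H2A distances came from weak single-library calls in H2A replicates 1 and 2, with summit pileups of 10 and 11 fragments. In H2A replicates 3 and 4 the nearest peak was 13.8 kb away. The regions within the gene that were called in all 8 libraries were in introns 32, 54, 60 and 66 and lay far from the start, between 176.9 and 301.6 kb.

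The region in intron 66, chr10:16827637-16828885, was the strongest of these. Its fold was 8.82, 8.52, 8.43 and 7.73 in E92K libraries and 8.02, 6.05, 7.11 and 8.13 in H2A libraries. The neighbouring gene RSU1, which encodes a protein of cell-matrix adhesions, had a promoter peak with the highest mean fold of the window, at 11.8 ± 0.664 in E92K libraries and 11 ± 0.487 in H2A libraries (SD, n = 4 each). A weak region in intron 50, chr10:16904476-16905174, was called in 0 of 4 E92K libraries and 3 of 4 H2A libraries, with folds of 3.77, 4.54 and 4.24 in H2A replicates 1 to 3. That split was not past the threshold (Fisher's exact test, two-sided, p = 0.143, adjusted p = 1), and 816 of 96872 regions (0.842%) were likewise called in at least 3 H2A libraries and no E92K library, against 701 (0.724%) in at least 3 E92K libraries and no H2A library.

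SLC22A6 and SLC22A8, the organic anion transporters OAT1 and OAT3, are neighbours on chromosome 11 that carry drugs and metabolites from blood into proximal tubule cells. SLC22A6 had 2, 3, 2 and 2 peaks in E92K replicates 1 to 4 and 2, 1, 2 and 2 in H2A replicates 1 to 4. SLC22A8 had 4, 4, 4 and 3 in E92K replicates 1 to 4 and 4, 4, 4 and 5 in H2A replicates 1 to 4. They share a region at chr11:62974855-62975725, which lies past the end of the canonical SLC22A6 transcript and inside a longer transcript of that gene. Its fold was 9.19, 10.1, 5.94 and 8.01 in E92K libraries and 7.32, 6.90, 8.15 and 9.20 in H2A libraries.

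Upstream of SLC22A8, a region whose edge was 19762 bp from the start, at the limit of the flank, and another 8.3 kb away were called in all 8 libraries. The farther region had a fold of 6.86 ± 0.605 in E92K libraries and 8.30 ± 1.43 in H2A libraries (SD, n = 4 each). The region at 8.3 kb had a fold of 7.35 ± 0.542 in E92K libraries and 6.25 ± 1.66 in H2A libraries. Another region came close to the promoter window, and was called in 2 E92K and 3 H2A libraries at folds of 2.46 to 4.10. Its peak edge lay 1638 and 1022 bp from the start site in E92K replicates 1 and 3. In H2A replicates 2, 3 and 4 it lay 1028, 1700 and 1520 bp away. Whether SLC22A8 counts as having a promoter peak in those 5 libraries thus depends on the promoter width chosen, and only E92K replicate 3 and H2A replicate 2 were close to the 1000 bp limit. Of the other regions at SLC22A6, the promoter of CHRM1, a muscarinic receptor gene, was called in 4 E92K and 3 H2A libraries, and a weak region 56.7 kb from the start only in E92K replicate 2.

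AQP2, the water channel that vasopressin moves to the apical membrane of collecting duct cells, had 2, 3, 2 and 3 peaks in E92K replicates 1 to 4 and 3, 3, 3 and 2 in H2A replicates 1 to 4. Its strongest distal region lay 5.0 kb upstream, at chr12:49945278-49946137, in all 8 libraries. The fold was 10.9, 12.1, 11.5 and 9.20 in E92K libraries and 10.5, 9.98, 12.4 and 10.1 in H2A libraries. That put it at the 81.3rd to 90.4th percentile of its list in E92K libraries and the 85.3rd to 90.9th in H2A libraries. The promoter of the adjacent gene AQP6, a related channel of intercalated cells, had a fold of 11 ± 0.303 in E92K libraries and 10.3 ± 0.25 in H2A libraries (SD, n = 4 each). These folds did not overlap, at 10.64 to 11.24 in E92K libraries and 9.929 to 10.5 in H2A libraries. The difference was not tested, and the share of all regions with folds that do not overlap was not counted. The 8.1 kb span of AQP2 itself had no peak.

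**Figure D3:**
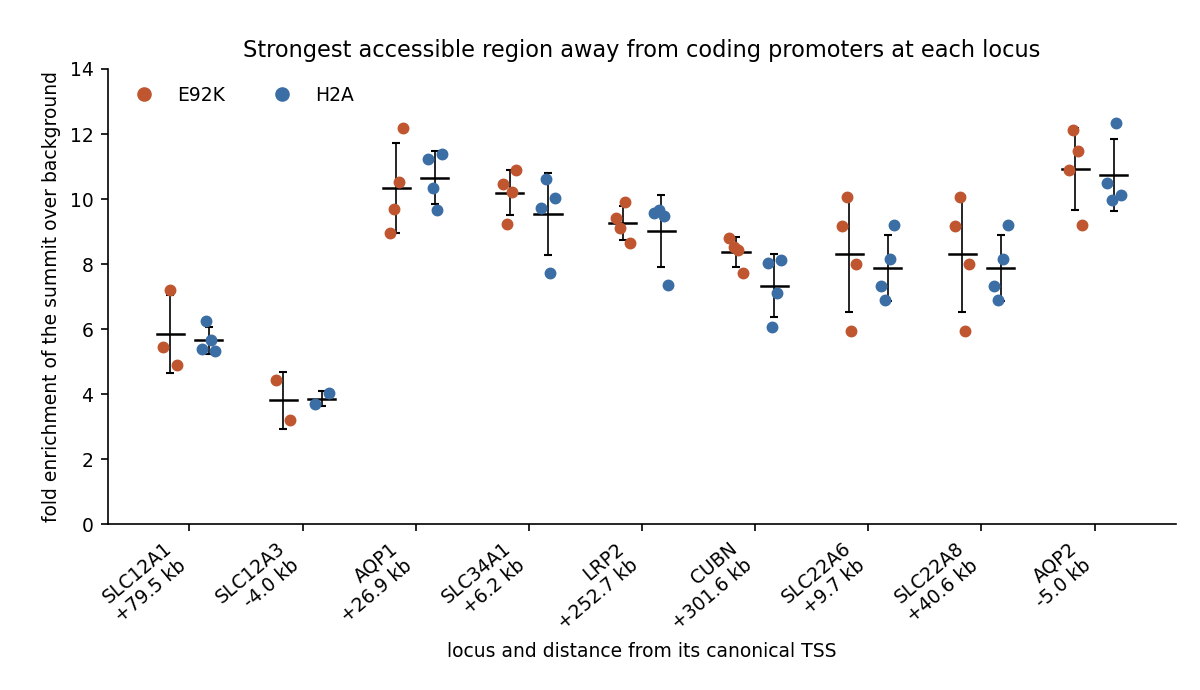
Fold enrichment of the summit over local background, as the authors' lists give it (y axis), for the region away from coding promoters that was called in most libraries and had the highest mean fold at each locus (x axis, with the distance of its midpoint from the canonical start site). Points are libraries that called the region, E92K left and H2A right, with the mean and SD; SLC22A6 and SLC22A8 share 1 region, which is drawn at both, and UMOD has none. The points of the groups overlap at every locus, and the regions of AQP1, SLC34A1 and AQP2 reach folds above 10 in both groups.

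The central letters of 5 of these distal regions are shown, each with the highest mean fold of its locus away from coding promoters. At AQP2, SLC34A1, CUBN, SLC22A6 and SLC22A8 the gene's own start site had no call, whereas that of LRP2 had one in all 8 libraries. Each is 200 bases of hg38, plus strand, around the strongest summit. Capitals mark the core of the CTCF motif, on either strand, with at most 1 mismatch, a tolerance chosen after the letters were seen. The regions that met the same rule at AQP1 (mean fold 10.5), SLC12A3 (3.84) and SLC12A1 (5.74) are not printed. At this tolerance those of AQP1 and SLC12A3 hold the core and that of SLC12A1 does not, so the printed regions are a selection.

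AQP2, 5.0 kb upstream, chr12:49945595-49945794, plus strand: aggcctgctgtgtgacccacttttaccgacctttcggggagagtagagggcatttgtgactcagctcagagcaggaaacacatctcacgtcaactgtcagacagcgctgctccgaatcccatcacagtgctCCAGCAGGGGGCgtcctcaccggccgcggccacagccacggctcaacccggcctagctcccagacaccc
SLC34A1, intron 8, chr5:177390579-177390778, plus strand: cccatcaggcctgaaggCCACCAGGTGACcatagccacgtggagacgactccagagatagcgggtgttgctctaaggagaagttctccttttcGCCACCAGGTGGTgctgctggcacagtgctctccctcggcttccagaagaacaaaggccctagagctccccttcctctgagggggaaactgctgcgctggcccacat
SLC22A6 and SLC22A8, shared region, chr11:62975184-62975383, plus strand: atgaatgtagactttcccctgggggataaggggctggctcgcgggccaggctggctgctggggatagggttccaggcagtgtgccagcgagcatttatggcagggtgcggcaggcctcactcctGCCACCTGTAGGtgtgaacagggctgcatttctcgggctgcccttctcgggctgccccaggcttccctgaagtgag
LRP2, downstream, chr2:169109846-169110045, plus strand: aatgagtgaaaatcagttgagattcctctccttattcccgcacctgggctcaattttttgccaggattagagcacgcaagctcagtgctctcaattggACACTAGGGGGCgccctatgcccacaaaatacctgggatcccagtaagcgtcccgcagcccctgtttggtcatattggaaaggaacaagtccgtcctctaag
CUBN, intron 66, chr10:16828274-16828473, plus strand: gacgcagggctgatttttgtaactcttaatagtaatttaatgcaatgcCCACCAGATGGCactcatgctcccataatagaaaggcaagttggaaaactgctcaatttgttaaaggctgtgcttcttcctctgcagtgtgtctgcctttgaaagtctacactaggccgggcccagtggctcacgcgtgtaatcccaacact

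In such 200-base windows, the exact CTCF core was found in 7 of the 54 regions (13%), among them the regions of AQP2 and of SLC22A6 printed above, the downstream region of AQP1 and the AQP6 promoter, against 6.9% of all regions. With 1 mismatch allowed it was found in 24 of 54 (44.4%), against 34.8% of all regions. Among regions present in all 8 libraries the looser match was found in 15 of 24 at these loci and in 48.4% across the genome. These shares are descriptions without a test.

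Between the groups, 0 of the 10 genes had peak counts that did not overlap, against 191 of 19617 genes (0.974%), of which 35 were higher (0.178%) and 156 lower (0.795%) in E92K. The difference in peak count, E92K minus H2A, was largest for CUBN, at 7.5 ± 0.577 in E92K libraries and 9.0 ± 1.63 in H2A libraries (SD, n = 4 each; exact permutation test, two-sided, p = 0.2, adjusted p = 1 over all genes). For LRP2 the counts were 7.5 ± 1.73 in E92K libraries and 8.0 ± 0.816 in H2A libraries (exact permutation p = 0.8). With 4 libraries a group the smallest p this test can give is 0.0286, and only genes without overlap, the 191 above, reach it. Without H2A replicate 4, which had fallen within the E92K range, the CUBN counts did not overlap (difference −2.17, exact permutation p = 0.0286). The share of all genes without overlap under that setting was not counted. After adjustment, with all 8 libraries, 0 of the 19617 genes had a p under 0.05. With so few libraries, an adjusted p under 0.05 would need most genes to reach the smallest p at once. The adjustment therefore could not pick out single genes, and this count is not evidence that no gene differed.

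The length covered by peaks gave the same picture: 0 of the 10 genes had non-overlapping values, against 805 of 19617 (4.1%). It also depends on how neighbouring peaks are split, since bases between them count where they were called as 1 peak. CUBN had 4581, 5083, 4349 and 4708 bp in E92K replicates 1 to 4 and 5611, 5547, 5601 and 4463 bp in H2A replicates 1 to 4 (exact permutation p = 0.114, adjusted p = 0.839). Of the 4 H2A libraries, 3 were above every E92K library, and H2A replicate 4 was second lowest of all. SLC22A8 had 1582, 1965, 1564 and 1139 bp in E92K replicates 1 to 4 and 1769, 2524, 1728 and 2047 bp in H2A replicates 1 to 4 (exact permutation p = 0.143, adjusted p = 0.847). AQP2 had 1692, 1984, 1539 and 1871 bp in E92K replicates 1 to 4 and 2097, 2072, 2138 and 1739 bp in H2A replicates 1 to 4 (exact permutation p = 0.143, adjusted p = 0.847). Without E92K replicate 2 the SLC22A8 values did not overlap, and without H2A replicate 4 neither those of AQP2 nor those of CUBN did, lower in E92K in each case (exact permutation p = 0.0571 for each, with 7 libraries). In each case the library left out was one whose value reached into the range of the other group. The share of all genes without overlap in 7 libraries was not counted. Library depth also differed, with a higher background pileup in most H2A libraries, and its part in these differences was not tested.

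**Figure D4:**
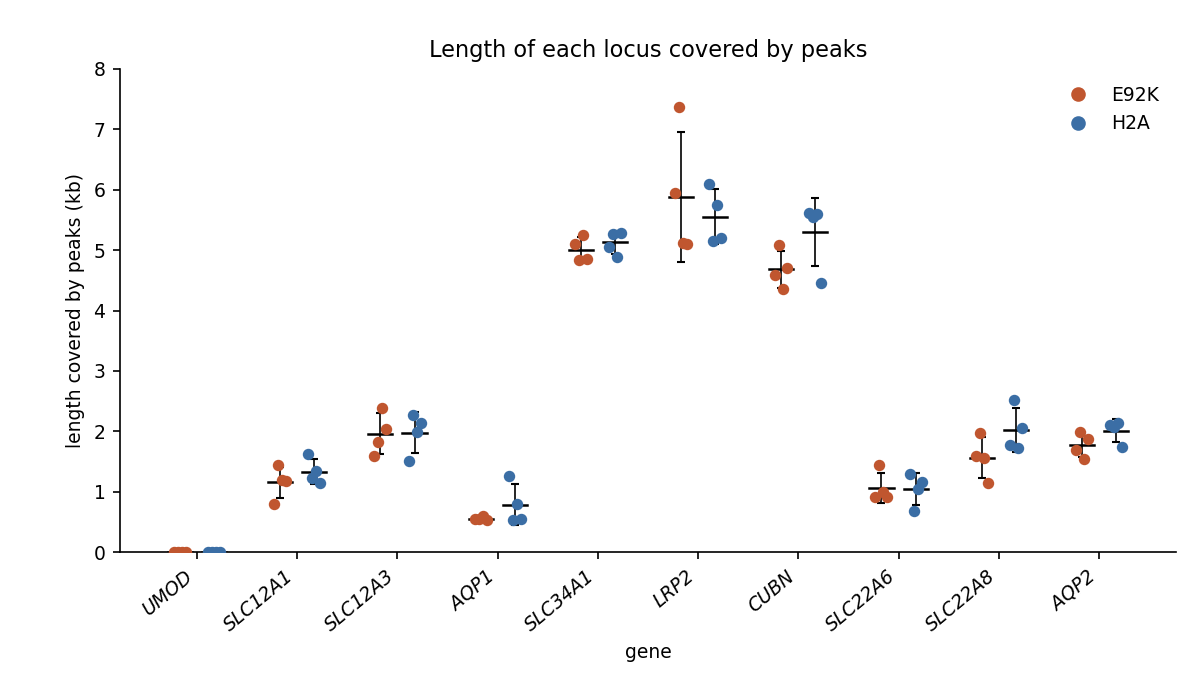
Length of each locus covered by peaks in kb (y axis) for the 10 genes (x axis), with 1 point per library, E92K left and H2A right, and bars for mean and SD (n = 4 each). The groups overlap at every gene; CUBN shows 3 H2A libraries near 5.6 kb above all E92K libraries and H2A replicate 4, with 4463 bp, among them.

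No individual region at the 10 loci was called in 4 libraries of a group and in 0 of the other 4. Across the genome 135 of 96872 regions (0.139%) were called in 4 E92K and 0 H2A libraries, and 178 (0.184%) in 0 E92K and 4 H2A libraries. Likewise no promoter of the 10 differed, while 1 of 19617 promoters (0.0051%) had a peak in 4 E92K and 0 H2A libraries and 5 (0.0255%) in 0 E92K and 4 H2A libraries. Of the 15 regions called in 1 library, 4 were in an E92K and 11 in an H2A library (73.3% in H2A). Across the genome such regions were divided into 11860 in an E92K and 13823 in an H2A library (53.8% in H2A), and the difference between these shares was not tested.

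Promoter letters were available for 9 of the 10 genes, all but SLC22A8. Of these, 5 had a CpG ratio under 0.2, namely SLC22A6 at 0, SLC12A1 at 0.078, CUBN at 0.081, UMOD at 0.142 and SLC34A1 at 0.189. SLC12A3 and AQP1 followed at 0.282 and 0.317, then AQP2 at 0.45 and LRP2 at 0.764. Across 15276 coding promoters, the share with a peak in all 8 libraries was 7.81% at a ratio under 0.2, 19.3% at 0.2 to 0.4, 52.3% at 0.4 to 0.6, 82.6% at 0.6 to 0.8 and 91.2% above. LRP2, the member with the highest ratio, was also the one with a peak within 1000 bp of its RefSeq start site. The median ratio was 0.852 over the 10208 promoters with a peak in all 8 libraries and 0.26 over the 4131 with none.

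**Figure D5:**
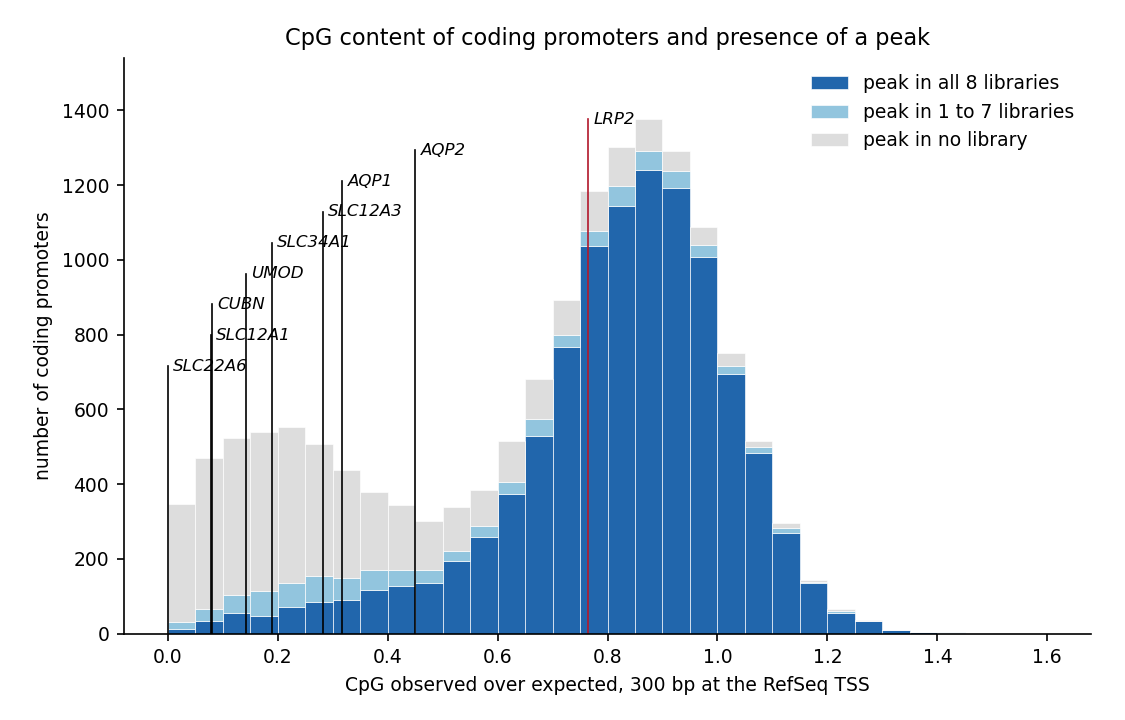
Distribution of the observed over expected CpG ratio (x axis) in 300-base windows at the start sites of 15276 coding promoters (y axis, number of promoters), stacked by the number of libraries with a peak within 1000 bp. Vertical lines mark 9 of the 10 tubule genes, in red the one with a peak (LRP2, 0.764) and in black those without; their heights are set only to keep the names apart, and 8 of the 9 lie at ratios of 0.45 or less.

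A TATA box with the letters TATAAA was found in 5 of the 9 promoters, those of SLC12A3, AQP1, SLC34A1, SLC22A6 and AQP2, against 9.65% of all coding promoters. The promoter of AQP2 is shown since vasopressin acts on this gene through cyclic AMP and CREB. Capitals mark 3 motifs. The core of a cyclic AMP response element, TGACGT, is on the minus strand here and is found in 9.78% of coding promoters. The GATA factor motif AGATAA, also on the minus strand, is found in 7.43%, and the last is the TATA box. The window had no peak in any library.

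AQP2, chr12:49950487-49950786, plus strand: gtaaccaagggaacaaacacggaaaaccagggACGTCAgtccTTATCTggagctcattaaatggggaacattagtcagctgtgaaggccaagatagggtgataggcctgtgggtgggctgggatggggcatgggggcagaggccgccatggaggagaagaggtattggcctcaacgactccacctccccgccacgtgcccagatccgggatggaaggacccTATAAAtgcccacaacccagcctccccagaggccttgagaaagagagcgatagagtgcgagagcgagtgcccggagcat

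Other tubule genes were taken from lists by segment. Of 24 further proximal tubule genes, 4 had a promoter peak in all 8 libraries (16.7%, against 68% of all genes) and 17 in none. The 4 were SLC4A4, a bicarbonate cotransporter, SLC47A1, a drug exporter, DAB2, an endocytic adaptor of megalin, and GGT1, a glutathione-cleaving enzyme. The 17 included the glucose transporters SLC5A1, SLC5A2 and SLC2A2, the urate exchanger SLC22A12 and AMN, the membrane anchor of cubilin. Of 8 genes of the loop of Henle, 7, among them KCNJ1 and CASR, had a promoter peak in no library (25.6% of all genes).

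Of 10 genes of the distal convoluted tubule, 7 had a promoter peak in all 8 libraries (70%, against 68% of all genes). They included TRPM6, CALB1 and KLHL3, and 2 genes of the 10, WNK4 and FXYD2, had none. Of 14 genes of the collecting duct, 9 had a promoter peak in all 8 (64.3%, also near the 68% of all genes). The 9 included AQP3, the sodium channel subunits SCNN1A, SCNN1B and SCNN1G, and NR3C2, the mineralocorticoid receptor. The vasopressin receptor gene AVPR2 was among the 3 with none.

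Of 16 transcription factors of tubule epithelium, 9 had a promoter peak in all 8 libraries (56.2%, against 68% of all genes) and 6 in none. Among the 6 were HNF4A, a regulator of proximal tubule genes, PAX8, FOXI1, a factor of intercalated cells, and GRHL2, a factor of epithelial junctions. PAX2, LHX1, GATA3 and ESRRG were among the 9. TFAP2B had a peak in 3 E92K and 2 H2A libraries. Of 12 nephron progenitor genes, which mark an earlier stage of kidney development, 10 had a promoter peak in all 8 (83.3%, against 68%). SIX2, SALL1 and WT1 were among the 10.

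As a check of the labelled cell type, 4 of 9 podocyte genes (44.4%) had a promoter peak in all 8 libraries, against 68% of all genes. The same held for 0 of 5 blood genes, 1 of 4 endothelial genes (25%) and 1 of 4 hepatocyte genes (25%). All these shares were below that of all genes, and differences between the lists were not tested. NPHS1, which encodes nephrin, had one in 1 E92K and 4 H2A libraries, and TCF21 in 2 E92K and 0 H2A libraries. No promoter of any of these lists separated 4 libraries from 4 in this way. Among all the lists, only the locus of ESRRG had peak counts without overlap, lower in E92K (0.795% of all genes). Its counts were 13, 11, 10 and 12 in E92K replicates 1 to 4 and 14, 15, 14 and 16 in H2A replicates 1 to 4. For covered length, SLC22A11 and KCNJ1 were lower in E92K without overlap (3.3% of all genes), and SCNN1B and PTPRC higher (0.805%). None of these passed the adjustment over all genes, which single genes could not pass with 4 libraries a group.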

How the data were processed

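The data were 8 peak lists, 1 per library, called per sample and on hg38 per the labels. The aligner, the peak caller and the handling of duplicates and of the Tn5 offset were not given in the sources used here, and each affects the number and width of peaks. Per the deposited values, the score is 10 times the −log10 q, the fold is a ratio of the summit to its local background, and the p-values and q-values are on the −log10 scale. The remaining deposited measure, the summit offset, is in bp. Folds are the authors' values and are given library by library as a description, with no test between lists.

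Repeated intervals were taken as 1 peak, represented by the summit with the smallest p. Depth was recovered from fold and p as a Poisson pileup and background, to within 0.001 of the −log10 p. Annotation was GENCODE version 44 on GRCh38. Regions were merged from the 8 lists, needed 1 bp to count as present, and were classed by midpoint. Peak counts and covered lengths were compared for 19617 genes by exact two-sided permutation over 70 assignments, and presence by Fisher's exact test, and p-values were adjusted by Benjamini-Hochberg over all genes or regions. With 4 libraries a group, neither test could give an adjusted p under 0.05 unless most genes or regions separated the groups at once. The procedures were tested on simulated data. The 10 genes were all named, with other genes where a peak touched their promoter and lists by segment. These genes and lists were chosen with earlier results of these data known, and a few listed genes are not reported here. Replicate numbers did not pair the libraries. Analyses used Python 3.11.15, numpy 2.4.6, pandas 2.3.3, scipy 1.17.1 and matplotlib 3.10.9. Alternatives covered the flank, promoter width, transcript set, q-value, equal list lengths, overlap, merging and leaving out each replicate.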

Additional observations from a re-analysis of the deposited data

Results flagged for a closer look

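Within groups of 4 libraries, 14 of 88 sets of values had 1 library set apart from the other 3, by a gap above the 95% critical value of Dixon's test. Chance gives about 1 in 20 such groups, and peak counts of 1 to 7 with 3 tied libraries reach it with a difference of a single peak. For peak counts these were SLC12A1 (1 in E92K replicate 1, others 2; 3 in H2A replicate 1, others 2), SLC34A1 (7 in H2A replicate 4, others 6), SLC22A6 (3 in E92K replicate 2, others 2; 1 in H2A replicate 2, others 2), SLC22A8 (3 in E92K replicate 4, others 4; 5 in H2A replicate 4, others 4) and AQP2 (2 in H2A replicate 4, others 3). For covered length, SLC22A6 had 1437 bp in E92K replicate 2 against 912 to 989 bp in the other E92K libraries. CUBN had 4463 bp in H2A replicate 4 against 5547 to 5611 bp in the other H2A libraries, and AQP2 had 1739 bp in H2A replicate 4 against 2072 to 2138 bp. For fold, the region in intron 71 of LRP2 reached 11.13 in E92K replicate 4 against 6.49 to 7.20 in the other E92K libraries, and the CUBN region inside RSU1 had 4.175 in E92K replicate 4 against 6.07 to 6.34. The region downstream of LRP2 had 7.374 in H2A replicate 4 against 9.50 to 9.67 in the other H2A libraries. H2A replicate 4, the library with the most peaks and the highest background pileup, accounted for 6 of the 14. Its depth was not tested as a part of these gaps.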

How the results depend on the processing

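The number of genes without any peak was 2 with a flank of 5 kb, when AQP1 joined UMOD, 4 with no flank, when AQP1, SLC22A8 and AQP2 joined it, and 0 with 50 kb. With no flank, 3 genes instead of 6 had a peak away from promoters, but no promoter peak, in every library; the other settings gave 4 to 8. With the canonical transcript alone 1 gene had a promoter peak, since SLC12A1 lost its own. With every annotated transcript, an alternative chosen after seeing the data, 3 did, since SLC34A1 gained one in all 8 libraries. A promoter of 2000 bp gave SLC22A8 a peak in 5 libraries and SLC12A3 in 1.

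With each replicate left out in turn, 0 to 1 of the 10 genes had non-overlapping peak counts and 0 to 2 non-overlapping covered lengths, all lower in E92K. The shares of all genes and regions without overlap were not counted with a replicate left out. The genes were, without H2A replicate 4, CUBN for both measures (peak count −2.17, E92K minus H2A, exact permutation p = 0.0286) and AQP2 for covered length, and without E92K replicate 2 SLC22A8 for covered length. The region in intron 50 of CUBN separated the groups without H2A replicate 4 (0 to 1 regions over the replicates left out). When a peak had to cover 50% of a region, 1 region did, in intron 1 of LRP2 with E92K higher, and the cause was not tested. That region, 1621 bp wide, was otherwise called in 4 E92K and 3 H2A libraries. Its peak in H2A replicate 4, at 805 bp, was just short of the 50% limit. The share of all regions separated under this setting was not counted. With the replicate number as a block, 0 genes had a shift past the threshold, and the smallest exact p was 0.25 for peak counts and 0.125 for covered length, which is the smallest it can give. Same-numbered libraries did not deviate together (correlations of −0.074 to 0.021 across genes). The other alternatives left these counts within 1.5 times. Single differences moved more, although none changed sign or passed the threshold beyond the CUBN count above. The CUBN peak count difference, −1.5 with all data, was −0.75 at a q-value of 1e-05, −1.0 with lists of equal length (exact permutation p = 0.714) and −0.83 without H2A replicate 2. The CUBN covered length difference, −625.2 bp, was −401 bp with lists of equal length (exact permutation p = 0.4). The AQP2 covered length difference, −240.0 bp, was −128.8 bp at a q-value of 1e-05, −24.2 bp with a 5 kb flank, −2.5 bp with 50 kb and 0 with no flank. That of SLC22A8, −454.5 bp, was −285.5 bp without H2A replicate 2 and 0 with no flank. The cause was not tested.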
